A study of Mus musculus with 9 samples.

Results

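Apc and 9 other genes of the Wnt/beta-catenin pathway were followed through 9 RNA sequencing libraries. The 10 genes (Apc, Axin1, Axin2, Ctnnb1, Gsk3b, Lef1, Tcf7l2, Nkd1, Lgr5 and Wnt9a) were picked by symbol from the 52550 rows of the deposited expression table. Apc entered because it was lower in 1 of the 3 groups, LY500307+PD-1, than in both others, so its level in that group is a description here and carries no test. The libraries are labelled as cells of 4T1, a mouse mammary carcinoma line, and form 3 groups of 3, a control group, a group treated with PD-1, and a group treated with LY500307 and PD-1 (the combination). LY500307 activates estrogen receptor beta as a selective agonist. PD-1 is the checkpoint receptor of T cells that blocking antibodies target. The labels give no dose, time or antibody. They do not say whether cells came from culture or from tumours, nor whether replicates were separate cultures or animals, so p-values here cover only library-to-library spread, part or all of which may be technical. The labels name no genetic alteration and no allele in any group.

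Wnt proteins are secreted ligands that bind Frizzled receptors and the co-receptors Lrp5 and Lrp6. Without a ligand, a cytoplasmic complex built on Apc and the Axin proteins holds beta-catenin, the product of Ctnnb1, so that casein kinase 1 and Gsk3 phosphorylate it and it is degraded. With a ligand, that complex is inhibited, beta-catenin enters the nucleus, joins the factors of the TCF/LEF family (Lef1, Tcf7l2) and switches on targets, among them Axin2, Nkd1 and Lgr5, the first pair of which dampen the pathway in turn. Much of this control acts on the beta-catenin protein, which RNA sequencing does not measure. In the mammary gland Wnt signals maintain stem cells, and ectopic Wnt expression gives mammary tumours in mice.

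Levels are given in FPKM, fragments per kilobase scaled to library size. The table names no unit and this one was inferred from its numbers. A step in its low values, once doubled, corresponds to a depth of 8270000 to 8700000 fragments per library. That depth is an estimate that rests on the doubling. The epithelial markers Epcam (98.5 to 281 FPKM), Krt8 (477 to 1249 FPKM) and Krt18 (621 to 1597 FPKM) were present in every library, as were Krt7, Cdh1 and Cldn4. The other 2 of the 8 epithelial markers were low, Cldn3 at 0.0922 to 2.03 FPKM and Cldn7 at 0 to 4.66 FPKM, with the 0 in combination replicate 2. Markers of other cell types were present too. The summed FPKM of 8 macrophage markers ran from 823 to 2695 and that of 10 endothelial markers from 46.3 to 105, so that a level below is one of a mixture, in which fewer cells of a type and less RNA per cell cannot be told apart. Combination replicate 2 stood apart, with summed epidermal markers of 644 FPKM against 43.4 to 144 in the others, adipocyte markers of 33.3 FPKM against 0 to 0.988, and skeletal muscle markers of 153 FPKM against 27.5 to 54.4. Differences were tested with limma on log2(FPKM + 1) over the 13990 genes that reached 1 FPKM in 3 or more libraries, and called at an adjusted p under 0.05. That fit called 0 genes in each of the 3 comparisons, which is 0% of those tested, with 342, 561 and 398 genes at an unadjusted p under 0.05 in PD-1 against control, the combination against control and the combination against PD-1. Of the 10 genes, 6 passed the filter on low values and 4 (Axin2, Lef1, Nkd1 and Lgr5) did not. Apc passed through its 6 control and PD-1 libraries alone, since no combination library reached 1 FPKM. None of the other 5 was called in any comparison. In PD-1 against control 3.21% of the genes tested had all PD-1 libraries above all control libraries and 3.47% had them below, and none of the 6 was among these.

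Apc, the scaffold of the complex that marks beta-catenin for destruction and a tumour suppressor of the intestine, lies on the plus strand at chr18:34220924-34322552 (GRCm38) and has 9 annotated transcripts, the longest of 12811 nt. Its level was 2.91, 2.92 and 2.2 FPKM in control replicates 1, 2 and 3. In the PD-1 group it was 1.68, 3.15 and 3.09 FPKM. In the combination it was 0.683, 0.573 and 0.998 FPKM. The combination libraries were thus the 3 lowest, and the highest of them, at 0.998 FPKM, lay below the lowest of the other 6, PD-1 replicate 1 at 1.68 FPKM. The group means were 2.68 ± 0.416 FPKM for the controls, 2.64 ± 0.832 for PD-1 and 0.751 ± 0.221 for the combination (SD, n = 3 each). The control mean was 3.56 times and the PD-1 mean 3.52 times that of the combination, and on the log2(FPKM + 1) scale, which understates differences of low genes, the combination was lower by a log2 difference of -1.07 and -1.03. Without combination replicate 2 these differences were -1.0 and -0.96.

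Because this contrast chose Apc, nothing is read from it beyond the values. Of the 13990 genes tested, 150, or 1.07%, had all 3 combination libraries below the other 6, and in 34.8% the combination mean was below both other means. The comparison that did not choose Apc, PD-1 against control, gave a log2 difference of -0.04 (SE 0.20, 95% interval -0.49 to 0.42, limma adjusted p = 1). Its groups overlapped, as 2 of the 3 PD-1 libraries lay above every control library and the third below. Averaged over all libraries, Apc was a low gene, above 18.3% of those tested. Its longest transcript and the inferred depth put it at about 63 to 352 fragments per library, so that it was measured with fewer fragments in the combination than elsewhere.

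**Figure D1:**
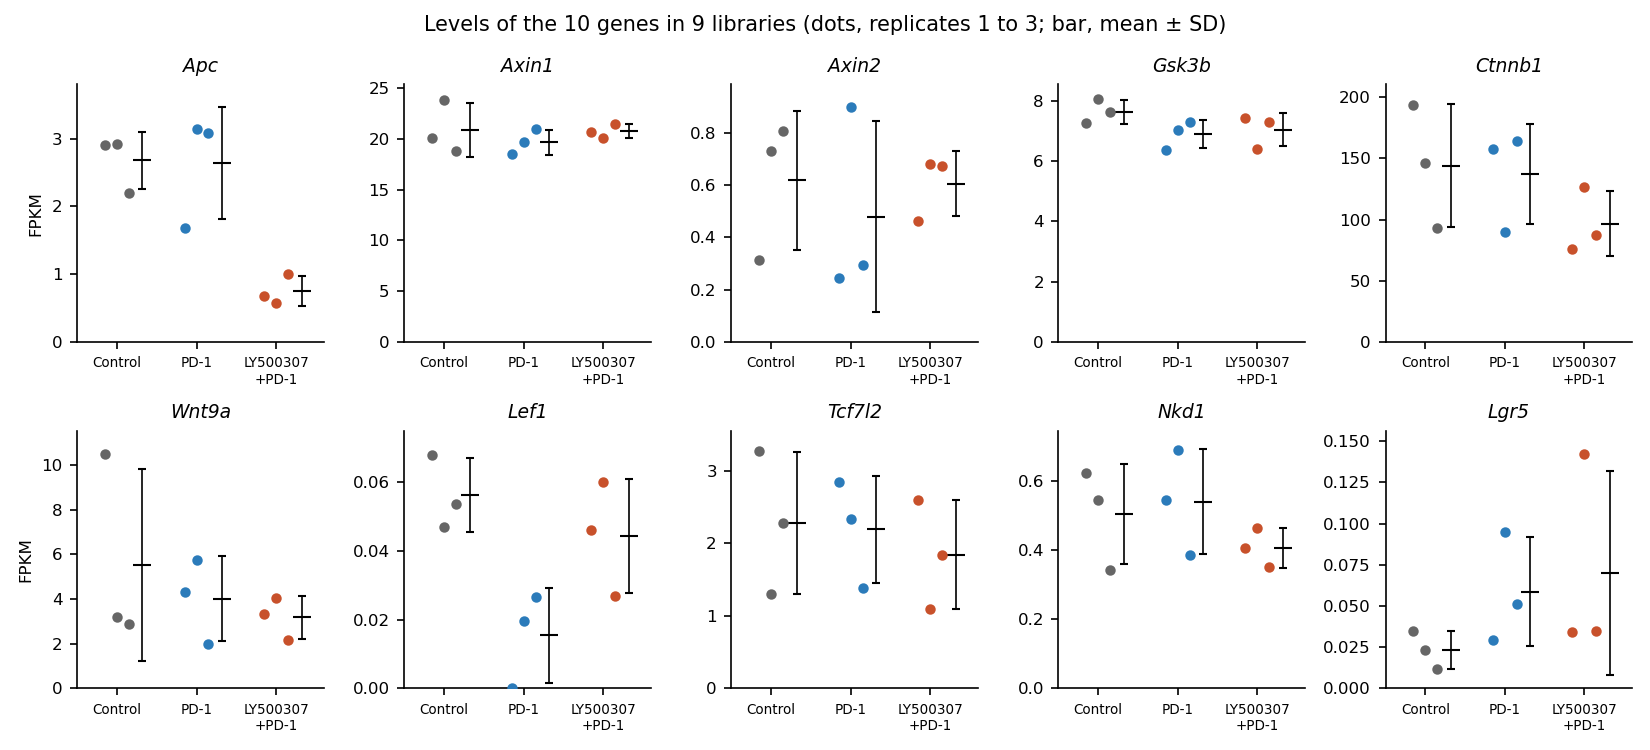
FPKM (vertical axes, each starting at 0 with its own scale) of the 10 genes in the 9 libraries. Dots are replicates 1 to 3 from left to right within a group, and the bar beside them is the mean ± SD. For Apc the 3 combination libraries (0.573 to 0.998 FPKM) sit below the other 6 (1.68 to 3.15 FPKM), while the groups of Axin1, Gsk3b, Ctnnb1, Tcf7l2 and Wnt9a overlap.

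Endothelial markers were also lower in the combination libraries. Their summed level ran from 68.3 to 105 FPKM in control libraries, from 61.5 to 83.3 in PD-1 and from 46.3 to 61.1 FPKM in the combination. The sums of the combination and PD-1 nearly met, at 61.1 and 61.5 FPKM. Of the 9 tested, 9 were below 0 against control (median log2 difference -0.49) and against PD-1 (median -0.44). Over all genes tested 50.6% and 49% were below 0. In PD-1 against control 7 of the 9 were below 0 too (median -0.11), beside 51.7% of all genes tested. None of the 10 was at 0 in any group. Summed erythroid markers were 54.1 to 91 FPKM in control, 82.1 to 137 FPKM in PD-1 and 25.1 to 66.3 FPKM in the combination. Neutrophil markers summed to 183 to 263, 104 to 701 and 56.5 to 381 FPKM in the same order. Some other lists went the other way. All 4 epidermal and 3 skeletal muscle markers tested were above 0 in both combination comparisons, where combination replicate 2 stood apart. Of the epidermal ones, Krt5 and Lor passed the filter on low values only through their combination libraries, so their sign is a description. Fibroblast markers were mixed, with all 7 above 0 against PD-1 but 3 above and 4 below 0 against control (median -0.03). The part of any of these cell types in the level of Apc was not tested.

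The 2 nearest protein-coding genes on either side of Apc were Srp19 and Reep5 beyond its end and Epb41l4a and Nrep before its start, and none of these 4 had the 3 combination libraries as its 3 lowest. Srp19, which codes for a protein of the signal recognition particle and starts 8295 bp beyond Apc, had means of 11.4 FPKM for the controls, 12.1 for PD-1 and 11.8 for the combination, and the combination differed from control by a log2 difference of 0.04 (SE 0.12, 95% interval -0.24 to 0.31). Reep5, a shaper of the endoplasmic reticulum, lies 22333 bp away and had means of 46.8, 49.4 and 49.7 FPKM, a log2 difference of 0.09 against control (SE 0.11, 95% interval -0.15 to 0.33). Epb41l4a, on the other side at 213958 bp, had means of 3.15, 3.07 and 3.39 FPKM. Nrep, 756895 bp away, had means of 3.38, 2.61 and 2.43 FPKM with a wide spread. None of these 4 neighbours was called in a comparison (limma adjusted p = 1). The 5′ end of the Apc locus is overlapped on the opposite strand by the pseudogene Gm10548, whose level was at most 0.157 FPKM. Whether the authors counted by strand is not given in the sources used here, and without it reads of overlapping genes cannot be told apart.

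The 5 tested genes with the profile closest to that of Apc were Gm42793, 1700001J03Rik, Dnajb4, Gm14127 and F10. Likeness was the root mean square difference of log2(FPKM + 1) over the 9 libraries after centring each gene on its mean, and it was 0.24, 0.27, 0.29, 0.29 and 0.30 for these genes, against a median of 0.57 over the other 13989 genes and 0.54 for the profile of Apc against a flat line. Dnajb4, a co-chaperone of the Hsp40 family, had 3.72 ± 0.844 FPKM in the controls, 4.23 ± 0.549 with PD-1 and 1.82 ± 0.462 in the combination (SD, n = 3). F10, coagulation factor X, had 4.26 ± 0.515, 2.97 ± 0.115 and 1.7 ± 0.211 FPKM. The 5 were chosen for closeness to the values that chose Apc, so their lower levels in the combination follow from that choice. None of them belongs to the Wnt lists used here, but those hold only 80 of the 13990 genes tested, so little can be read from it. The other tested genes of the set were Gsk3b at 0.51, Ctnnb1 at 0.52, Axin1 at 0.54, Tcf7l2 at 0.59 and Wnt9a at 0.67. These lie around the flat line and the median, and ranked from place 2090 (Gsk3b) to place 11445 (Wnt9a).

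**Figure D2:**
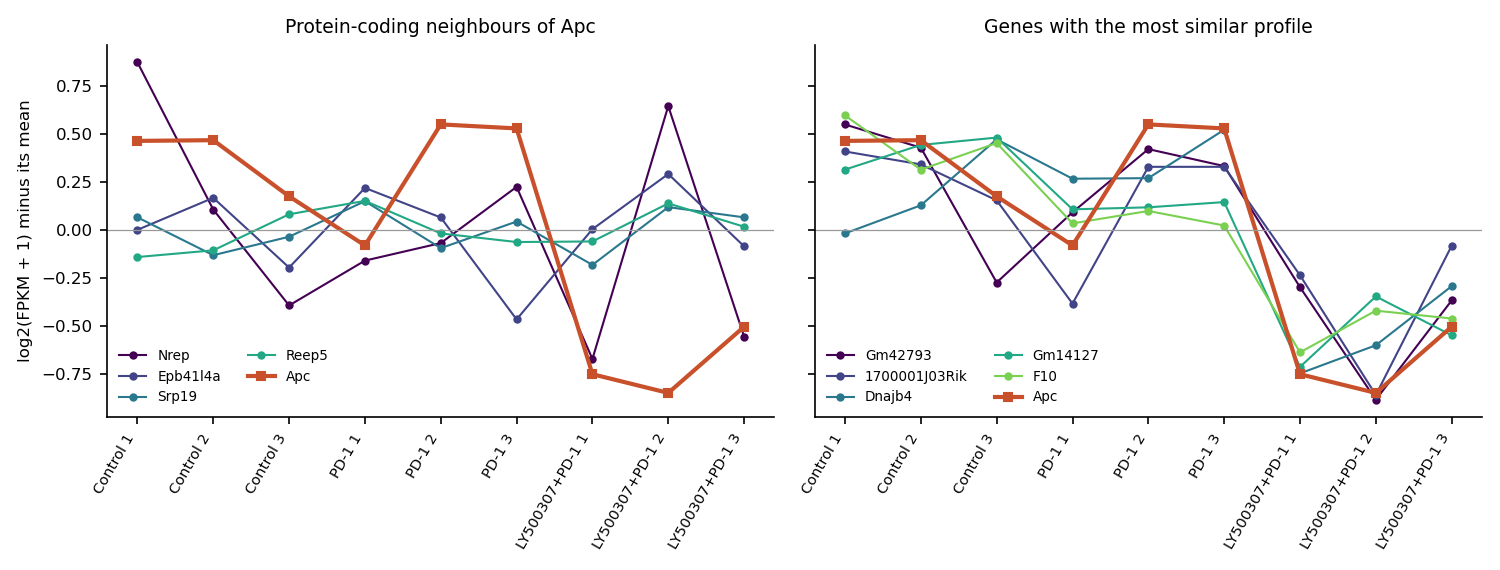
Level of Apc (orange squares) by library as log2(FPKM + 1) minus its mean over the 9 libraries, beside its 4 protein-coding neighbours (left) and the 5 genes with the most similar profile (right). Lines join libraries for legibility and carry no order. No neighbour has the 3 combination libraries as its 3 lowest, and the 5 genes on the right were chosen for their small distance to Apc over all 9 libraries.

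Apc2, a paralog of Apc expressed mainly in nerve tissue, had 0.928, 1.06 and 0.7 FPKM in control. In PD-1 it had 0.848, 1.37 and 0.828 FPKM, and in the combination 1.24, 1.48 and 1.42 FPKM. All 3 combination libraries were above the control libraries (3.61% of the genes tested had groups so separated with the combination higher), while 1 PD-1 library lay among them. Outside the combination only control replicate 2 and PD-1 replicate 2 reached 1 FPKM, so Apc2 passed the filter on low values through its combination libraries. The separation and the log2 difference of the combination from control, 0.33, are therefore descriptions and carry no test. Taking the FPKM of both paralogs together, the share of Apc was 73.3% to 75.8% in control, 66.5% to 78.8% in PD-1 and 27.9% to 41.3% in the combination. That share holds the values that chose Apc and is likewise a description.

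Axin1, the limiting scaffold of the destruction complex (chr17:26138688-26195811), was among the steadiest of the 10 genes, with 20.1, 23.9 and 18.8 FPKM in control. PD-1 libraries had 18.5, 19.7 and 21 FPKM and combination libraries 20.7, 20.1 and 21.5 FPKM, so all groups overlapped and the highest library was 1.29 times the lowest. PD-1 differed from control by a log2 difference of -0.08 (SE 0.11, 95% interval -0.32 to 0.17) and the combination from PD-1 by 0.07 (SE 0.11, interval -0.18 to 0.32). For the combination against control the interval was -0.25 to 0.24.

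Gsk3b, one of the kinases that phosphorylate beta-catenin (chr16:38089001-38246084), was as steady. It had 7.25, 8.05 and 7.64 FPKM in the controls, 6.38, 7.03 and 7.3 FPKM with PD-1, and 7.42, 6.4 and 7.29 FPKM in the combination. The highest library was 1.26 times the lowest and the groups overlapped. Its log2 differences were -0.13 for PD-1 against control (SE 0.11, 95% interval -0.37 to 0.11), -0.11 for the combination against control (interval -0.35 to 0.13) and 0.02 for the combination against PD-1 (interval -0.22 to 0.26). For both Axin1 and Gsk3b the intervals leave out a log2 difference of 1 in either direction (limma adjusted p = 1 throughout).

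Ctnnb1, which codes for beta-catenin (chr9:120929216-120960507), was the most abundant of the 10, above 97.4% of the genes tested. Control libraries had 194, 146 and 93.2 FPKM. PD-1 libraries had 158, 90.2 and 164 FPKM, and combination libraries 75.7, 127 and 87.6 FPKM. Both the highest combination library and the lowest control and PD-1 libraries lay inside the range of another group, so the groups overlapped, although the 4 highest libraries were all control or PD-1. The combination mean was 96.7 ± 26.8 FPKM against 144 ± 50.2 in control and 137 ± 41 in PD-1 (SD, n = 3), with log2 differences of -0.54 (SE 0.32, 95% interval -1.27 to 0.19) and -0.49 (SE 0.32, interval -1.22 to 0.24). Neither passed (limma adjusted p = 1), and PD-1 against control gave -0.06 (interval -0.79 to 0.67). Ulk4, a gene on the opposite strand that overlaps Ctnnb1, had 21.5 to 34.9 FPKM. The ratio of Ctnnb1 to Apc in FPKM was 42.5 to 66.6 in control, 28.6 to 94.2 in PD-1 and 87.8 to 221 in the combination, where it rests on the low Apc values that made the choice.

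**Figure D3:**
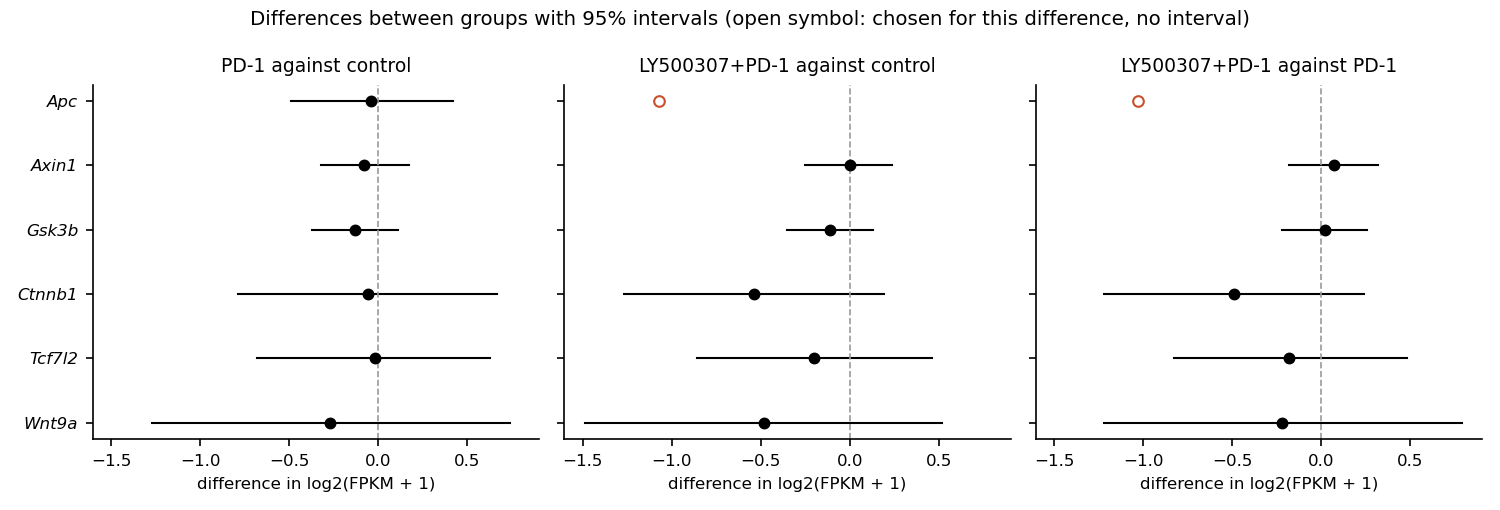
Differences in log2(FPKM + 1) (horizontal axes) for the 6 genes that passed the filter, in the 3 comparisons. Filled symbols carry 95% intervals from the limma fit over 13990 genes, and the open symbols are Apc in the comparisons that chose it (-1.07 and -1.03), given with no interval. Every interval drawn spans 0, narrowest for Axin1 and Gsk3b and widest for Wnt9a.

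Of the 13 genes listed for the destruction complex and its substrate, 12 passed the filter, and 0 of the 11 beside Apc were called in any comparison. As 0 of all 13990 genes tested were called, a count of 0 here or in a list below says nothing particular about that list. The median log2 difference of the 11 was -0.03 for the combination against control, with 9 below 0, and 0.02 against PD-1, with 5 below 0. Over all genes tested 50.6% and 49% were below 0. Gsk3a, the sister kinase of Gsk3b, had a log2 difference of 0.06 (SE 0.09) against control and 0.09 (SE 0.09) against PD-1, none of which passed.

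Among the ligands, Wnt9a (chr11:59306928-59333552), known for its part in joint development and blood stem cells, had 10.5, 3.17 and 2.89 FPKM in control. It had 4.29, 5.75 and 2 FPKM in PD-1 and 3.32, 4.03 and 2.15 FPKM in the combination. Control replicate 1 was the highest library by far and the other 8 ranged from 2 to 5.75 FPKM, with all groups overlapping. The combination differed from control by a log2 difference of -0.48 (SE 0.44, 95% interval -1.49 to 0.52), and PD-1 from control by -0.27 (SE 0.44, interval -1.27 to 0.74), with limma adjusted p = 1 for both. Without control replicate 1 these were 0.02 and 0.24, and without PD-1 replicate 3 the difference of PD-1 from control was 0.07, so their sign rested on single libraries. The combination against PD-1 gave -0.22 (SE 0.44, interval -1.22 to 0.79), and 0.04 without PD-1 replicate 2.

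Wnt9a was 1 of 6 tested among 19 Wnt ligand genes, and 0 of the 6 were called, as over all genes tested. Wnt7b, a ligand of the mammary and kidney epithelium, had the highest level, 40.8 to 72.7 FPKM over the 9 libraries, followed by Wnt10a with 15 to 34.9 FPKM. Both were named for their level after it was seen. Wnt7b had a log2 difference of 0.22 (SE 0.21) between the combination and control, and Wnt10b, a ligand of early mammary development, one of -0.43 (SE 0.32). Porcn, the acyltransferase that Wnt proteins need for secretion, had a log2 difference of -0.51 (SE 0.26, 95% interval -1.09 to 0.07) against control, and neither it nor Wls, the carrier of Wnt proteins to the surface (-0.11, SE 0.20), passed.

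At the receptor level 10 of 15 genes were tested and 0 called, as over all genes tested. Their median log2 differences were -0.05 for the combination against control and 0.00 against PD-1. The Frizzled receptor Fzd7 had a log2 difference of -0.42 (SE 0.24) against control. Lrp6, a Wnt co-receptor, had 3.25 to 4.02 FPKM in control, 3.86 to 4.39 FPKM in PD-1 and 2.77 to 3.65 FPKM in the combination. Its combination libraries were all below the PD-1 libraries, a separation found in 4.06% of the genes tested, and the log2 difference of -0.26 (SE 0.13, 95% interval -0.55 to 0.04) did not pass.

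Lgr5, the R-spondin receptor that marks stem cells of the gut and hair follicle (chr10:115450311-115587780, minus strand), was nearly absent. Its level was 0.0349, 0.0232 and 0.0115 FPKM in the controls, 0.0295, 0.0948 and 0.0514 FPKM with PD-1, and 0.0339, 0.142 and 0.0347 FPKM in the combination. The inferred depth makes this 0.469 to 5.83 fragments, too few to read a difference, and the highest value is that of combination replicate 2. Its relative Lgr6 had 1.89 to 9.59 FPKM in control, 4.16 to 7.14 FPKM in PD-1 and 2.94 to 4.14 FPKM in the combination. All combination libraries of Lgr6 lay below the PD-1 libraries, a separation found in 4.06% of the genes tested. It was a narrow one, 4.14 against 4.16 FPKM, and the log2 difference of -0.47 (SE 0.41) did not pass. Of the 9 genes of the R-spondin axis 4 were tested and 0 called, and 0 of all genes tested were called too. Among 15 extracellular inhibitors 5 were tested and 0 called, the largest difference among them being that of Sfrp2, a secreted decoy for Wnt proteins, at -0.96 (SE 0.47, 95% interval -2.03 to 0.10) between the combination and PD-1. That difference leans on PD-1 replicate 3, which had 18 FPKM of Sfrp2 against 2.54 to 8.52 in the others.

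**Figure D4:**
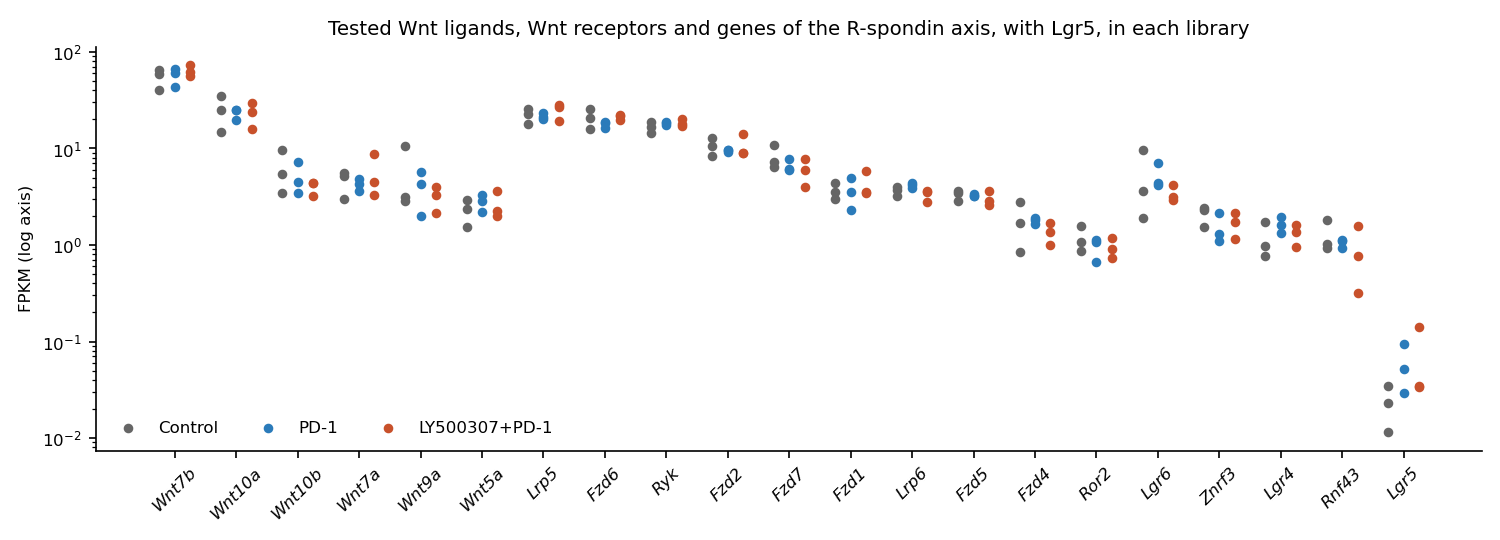
FPKM on a log axis of the 20 tested genes among the Wnt ligands, Wnt receptors and R-spondin axis, ordered by level within each list, with Lgr5 added. Each dot is 1 library, coloured by group. Wnt7b reaches 72.7 FPKM and Lgr5 stays at or below 0.142 FPKM, and no gene shown was called in any comparison.

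In the nucleus, Tcf7l2 (chr19:55741820-55933654, 22 transcripts), the TCF factor of the gut epithelium, had 3.27, 1.3 and 2.28 FPKM in control. PD-1 libraries had 2.85, 2.33 and 1.39 FPKM and combination libraries 2.59, 1.09 and 1.84 FPKM. The spread inside each group was as wide as the range between groups. The log2 differences were -0.02 for PD-1 against control (SE 0.29, 95% interval -0.68 to 0.63), -0.20 for the combination against control (interval -0.86 to 0.46) and -0.18 for the combination against PD-1 (interval -0.83 to 0.48), with limma adjusted p = 1. Lef1 (chr3:131110471-131224356), a factor of the same family found in T cells and hair follicles, was at 0.068, 0.0469 and 0.0537 FPKM in the controls, at 0, 0.0197 and 0.0266 FPKM with PD-1, and at 0.0461, 0.06 and 0.027 FPKM in the combination. At an estimated 2.09 fragments or fewer in a library, no order of the groups can be read from these values.

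Of 15 nuclear effectors 13 were tested and 0 called, as over all genes tested. The 13 had a median log2 difference of 0.02 for the combination against control and 0.12 against PD-1. Pygo2, a co-activator that links beta-catenin to chromatin, took 1 of 2 levels. It had 4.75, 3.67 and 19.8 FPKM in the controls, 4.9, 23.6 and 3.5 FPKM with PD-1, and 23, 23.7 and 18.4 FPKM in the combination. Of the 9 libraries, 5, namely control replicate 3, PD-1 replicate 2 and all of the combination, were at 18.4 to 23.7 FPKM and the other 4 at 3.5 to 4.9 FPKM, with none between. The log2 difference of the combination was 1.45 against control (SE 0.69, 95% interval -0.11 to 3.02) and 1.38 against PD-1 (SE 0.69, interval -0.19 to 2.95), and neither passed (limma adjusted p = 1). The 5 libraries at the high level of Pygo2 were also the 5 lowest for Ctnnb1, a match seen after the values and not tested.

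Axin2 (chr11:108920349-108950783), a feedback inhibitor and the target most used to read the pathway, had 0.314, 0.732 and 0.807 FPKM in control. It had 0.243, 0.899 and 0.295 FPKM in PD-1 and 0.463, 0.679 and 0.675 FPKM in the combination. All groups overlapped, the combination within the range of both others, and the means were 0.618 ± 0.266, 0.479 ± 0.365 and 0.606 ± 0.124 FPKM (SD, n = 3). Nkd1 (chr8:88521354-88594884), a target that binds Dishevelled and restrains it, had 0.625, 0.547 and 0.344 FPKM in the controls, 0.547, 0.69 and 0.386 FPKM with PD-1, and 0.407, 0.465 and 0.351 FPKM in the combination. Its groups overlapped as well. Both were below the filter and untested, at 8.55 to 33.3 and 12 to 24.5 fragments per library.

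Of 19 target genes 9 were tested and 0 called, as over all genes tested. The 9 had medians of 0.06 for the combination against control and 0.12 against PD-1, beside -0.07 for PD-1 against control. Ccnd1, the cyclin of the early cell cycle, was the most abundant at 164 to 267 FPKM and had a log2 difference of 0.26 (SE 0.17, 95% interval -0.12 to 0.64) against control. Apcdd1, a membrane inhibitor of the pathway, had one of 0.33 (SE 0.20), and Tcf7, a TCF factor also made by T cells, one of 0.39 (SE 0.22) between the combination and PD-1. None passed.

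RefSeq promoter windows (250 bases before to 50 after a transcript start, GRCm38.p6) were found for 7 of the 10 genes, 12 windows in all. No window was found for Apc, Axin1 or Lgr5, so their promoters were not searched. The windows were searched for CTTTGA or CTTTGT on either strand, the core of a TCF/LEF site. Of all 32851 windows 31.2% held a match, and 3 of the 12 did, at starts of Lef1, Gsk3b and Tcf7l2. The sequences below, all on the plus strand, are those with the most matches, that of the steady kinase gene, and that of Axin2, the feedback target, which has none in this window. Capitals mark the matches.
Lef1, internal start, chr3:131156044-131156343: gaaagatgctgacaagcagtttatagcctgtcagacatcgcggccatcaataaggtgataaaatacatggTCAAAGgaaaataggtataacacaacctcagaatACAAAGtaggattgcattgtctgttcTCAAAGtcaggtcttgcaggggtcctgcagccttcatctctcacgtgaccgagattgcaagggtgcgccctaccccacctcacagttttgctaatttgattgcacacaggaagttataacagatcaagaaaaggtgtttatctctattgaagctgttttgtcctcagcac
Gsk3b, chr16:38088751-38089050: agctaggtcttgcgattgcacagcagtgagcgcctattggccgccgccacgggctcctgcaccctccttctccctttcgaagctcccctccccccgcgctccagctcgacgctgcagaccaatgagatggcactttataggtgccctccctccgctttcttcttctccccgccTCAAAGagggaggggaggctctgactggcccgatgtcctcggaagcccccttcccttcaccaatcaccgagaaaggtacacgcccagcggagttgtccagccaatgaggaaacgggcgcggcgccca
Axin2, chr11:108920099-108920398: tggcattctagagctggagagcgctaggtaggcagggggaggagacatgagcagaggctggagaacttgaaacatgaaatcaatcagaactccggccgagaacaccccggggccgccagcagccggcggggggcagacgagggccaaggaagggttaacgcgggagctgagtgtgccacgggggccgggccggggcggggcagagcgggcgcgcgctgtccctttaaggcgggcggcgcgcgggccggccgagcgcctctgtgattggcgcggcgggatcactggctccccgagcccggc
The 3 matches of Lef1 begin 180, 146 and 120 bases before the start and that of Gsk3b 77 bases before it. A match is a run of letters and no evidence of binding, and Lef1, whose window held the most, was at or near 0 in every library.

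Of 10 genes for Dishevelled and its regulators 8 were tested and 0 called, as over all genes tested. The 8 had medians of -0.11 for the combination against control and -0.01 against PD-1. Beta-catenin and Apc have further partners at junctions and on the cytoskeleton. Cdh1, the E-cadherin of epithelial junctions that binds beta-catenin, had 55.8, 84.1 and 67 FPKM in the controls, 65.5, 70.7 and 70.1 FPKM with PD-1, and 87, 94.9 and 81.3 FPKM in the combination. Its combination libraries lay above all PD-1 libraries (3.54% of the genes tested) and overlapped the control group, with log2 differences of 0.36 against control (SE 0.14, 95% interval 0.03 to 0.69) and 0.35 against PD-1 (SE 0.14, interval 0.02 to 0.67). Neither passed over all genes (limma adjusted p = 1).

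Cdh5, the cadherin of endothelial junctions, had 23.8, 19.4 and 17.7 FPKM in the controls, 17.2, 16.3 and 16.1 FPKM with PD-1, and 16.8, 15.7 and 12.4 FPKM in the combination. All combination libraries were below the control libraries (4.33% of the genes tested), and the log2 difference was -0.42 (SE 0.14, 95% interval -0.74 to -0.09). It did not pass (limma adjusted p = 1). Cdh5 is itself among the endothelial markers, whose summed level was lower in the combination as given above, and the part of endothelial cells in its level was not tested. Diaph1, a formin that works with Apc on microtubules, had 14.2 to 17.4 FPKM in control libraries and 17.3 to 23.3 FPKM in the combination, and the log2 difference, 0.32 (SE 0.13, 95% interval 0.02 to 0.63), did not pass either.

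The 11 lists together held 126 genes, of which 80 passed the filter. In any comparison 0 of the 79 beside Apc were called, as were 0 of all 13990 genes tested. Of these 79, 46, or 58.2%, were below 0 for the combination against control, with a median log2 difference of -0.02. Against PD-1 it was 38 of 79, or 48.1%, with a median of 0.01, and for PD-1 against control 49 of 79, or 62%, with a median of -0.03. The shares of all genes tested below 0 were 50.6%, 49% and 51.7%. At an unadjusted p under 0.05 stood 3 of the 79 for the combination against control (Cdh1, Cdh5 and Diaph1, beside 4.01% of all genes), 1 against PD-1 (Cdh1, beside 2.84%) and 1 for PD-1 against control (Kremen1, a receptor for Dkk proteins, beside 2.44%). The comparisons share libraries, and these counts are given side by side without a test between them.

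**Figure D5:**
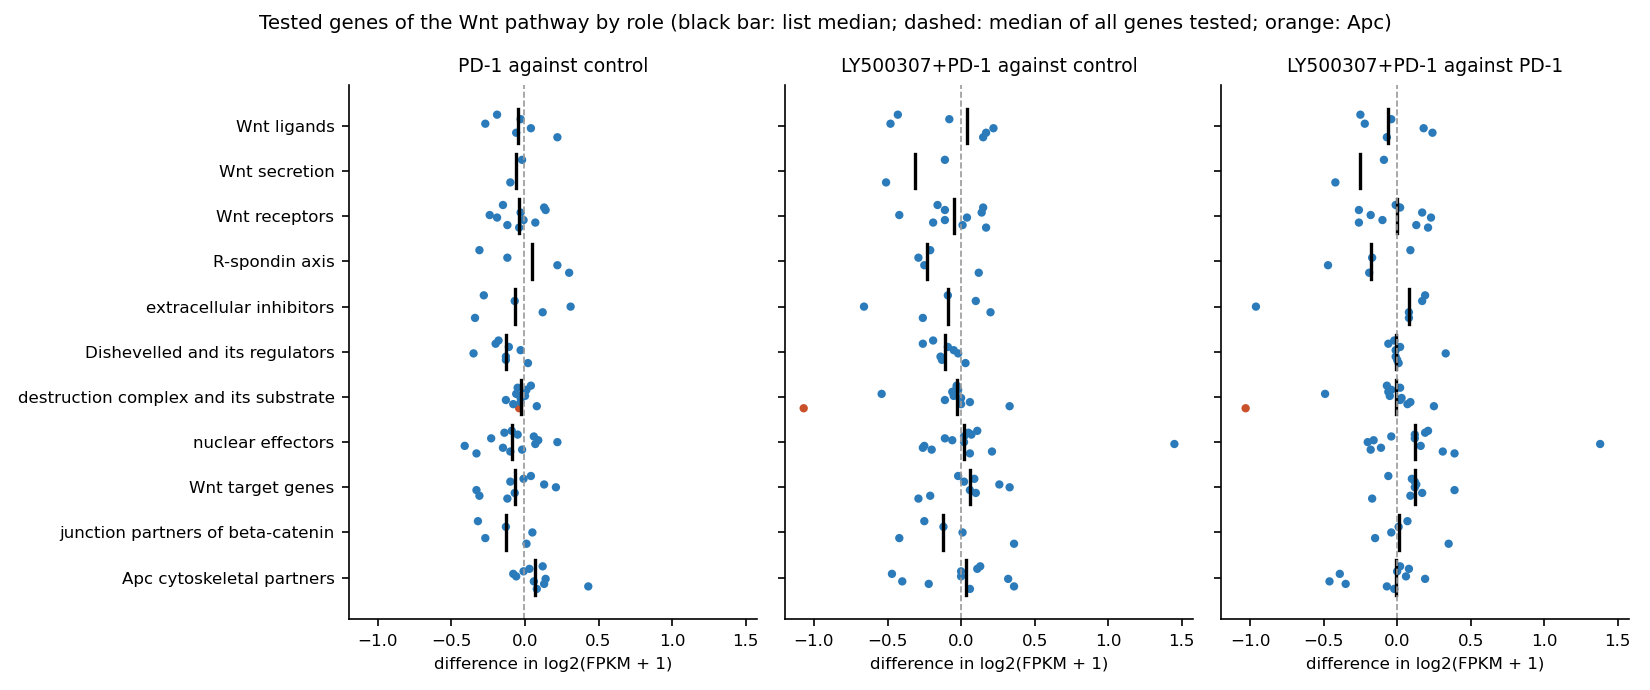
Differences in log2(FPKM + 1) of the 80 tested genes by list, in the 3 comparisons. Black bars are list medians, the dashed line is the median of all 13990 genes tested and orange dots are Apc. List medians lie between -0.31 (Wnt secretion, 2 genes) and 0.12, and the dots farthest out are Apc (-1.07 and -1.03), Sfrp2 (-0.96) and Pygo2 (1.45 and 1.38).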

How the data were processed

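RNA of 9 libraries labelled 4T1 was isolated with Trizol and, once ribosomal RNA was removed, prepared with the TruSeq Stranded Total RNA kit, per the labels' protocols. Groups follow the sample titles, although PD-1 replicates 2 and 3 carry those numbers within their treatment labels. The authors deposited 1 table, taken to be FPKM from its values, since its header names no unit. Tools named in the submitters' processing notes, with no role or order, are Bowtie2, CASAVA 1.8 and DESeq2, and the build is mm9. Which tool counted, with what annotation and strand setting, is not given in the sources used here. Of the Ensembl identifiers 99.7% were found in GENCODE M21 (GRCm38), so names and coordinates come from there, matched by identifier.

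Each library's FPKM summed to between 348764 and 370214, and 20701 to 21480 genes were above 0. Low values of genes of 300 nt or more with a single transcript were searched for a step within a fixed range. The step found was doubled, and the doubled step gave the depth. Only 23.1% to 29.3% of those values lay within 0.02 of a whole doubled step, so reads were not recovered and no count test was run. Fragment numbers are estimates from the longest transcript and this depth. With the step left undoubled they would be larger.

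The 13990 genes that reached 1 FPKM in 3 or more libraries were fitted as log2(FPKM + 1) on all 9 libraries with limma 3.58.1 in R 4.3.3, with trend and robust moderation and Benjamini-Hochberg adjustment over all genes. On simulated data with known differences, the fit was required only to give their mean size back. How often it calls a true difference is not reported here. Other steps used Python 3.11.15, pandas 2.3.3 and matplotlib 3.10.9. Alternatives were quantile normalization, no filter, only the 6 libraries compared, a pseudocount of 0.1, a replicate block, and each library left out. The genes and lists were chosen with earlier results of these data known. Besides the 10 genes, the text names up to 2 genes per list and comparison with the smallest unadjusted p, the 5 nearest in profile to Apc and the 2 nearest protein-coding genes on either side of it. Wnt7b, Wnt10a and the epithelial markers Epcam, Krt8 and Krt18 were named for their level after it was seen.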

Additional observations from a re-analysis of the deposited data

How the results depend on the processing

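Called genes stayed at 0 in all 3 comparisons with quantile normalization, with no filter on low values (27447 genes), with a pseudocount of 0.1 and with only the 6 libraries compared. Leaving out 1 library gave 0 to 1 calls for PD-1 against control, 0 to 2 for the combination against control and 0 to 2 for the combination against PD-1. The genes then called were Emp1 (without control replicate 1), Rab22a and Trf (without control replicate 2), Trim25 and Nek7 (without PD-1 replicate 1), Gm5641 (without PD-1 replicate 2), H2-Bl (without PD-1 replicate 3), Sept8 (without combination replicate 1), and Rpgrip1 and Nipsnap2 (without combination replicate 2). None is in a Wnt list, and the cause was not tested.

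The difference of Apc in the combination, which chose it, was -1.17 to -1.0 against control and -1.24 to -0.93 against PD-1 when 1 library was left out. It was -1.72 and -1.67 with a pseudocount of 0.1, which weighs low values more. In PD-1 against control, leaving out 1 library changed the sign of Apc (-0.15 to 0.17), Axin1 (-0.15 to 0.02), Ctnnb1 (-0.34 to 0.22), Tcf7l2 (-0.26 to 0.19) and Wnt9a (-0.54 to 0.24). It did so for the combination against control in Axin1 (-0.08 to 0.09, near 0 with all libraries), Tcf7l2 (-0.43 to 0.01) and Wnt9a (-0.76 to 0.02), and against PD-1 in Gsk3b (-0.02 to 0.08), Tcf7l2 (-0.37 to 0.03) and Wnt9a (-0.55 to 0.04). Ctnnb1 kept its sign in both combination comparisons (-0.83 to -0.30 and -0.76 to -0.33) under each library left out. Not one of the 5 genes tested beside Apc was called under any alternative.

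A pairing of the libraries by replicate number was not shown, and 3 libraries a group cannot exclude one. Deviations of same-numbered libraries correlated at -0.12 to 0.27, over 0.1 in 3 of 9 pairs, and 4 of 9 libraries correlated best with their own number. With the replicate block 0 genes were called in each comparison. Depth limits Lef1, Lgr5, Nkd1 and Axin2 most, and 3 libraries a group limit every interval.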
